A study of Arabidopsis thaliana with 9 samples.

Results

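The plastid genome of Arabidopsis thaliana is the small chromosome kept inside chloroplasts since their bacterial ancestor, and it encodes core subunits of the photosynthetic complexes together with part of the machinery that expresses them. Its transcripts were examined here in seedlings that lack either of a pair of nuclear chromatin proteins. The genes were selected by annotation and not by signal, although the plastid genome was taken up as a set with earlier results of these data known. A probe set was taken when it named exactly 1 gene that the RefSeq annotation places on the plastid chromosome and whose symbol is that of a plastid protein gene. This gave 69 genes, each with 1 probe set, out of 13356 genes named by 1 probe set or more on the array. They comprise 20 photosystem genes (5 psa and 15 psb), 10 ndh genes, 6 pet genes, 6 atp genes, rbcL, 20 genes for gene expression (4 rpo, 15 rps or rpl, and matK) and ycf3, ycf4, clpP, accD, cemA and ccsA. All 69 probe sets are of the type designed for a single transcript, and 8 further plastid probe sets that named 2 entries each were left out.

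Whole seedlings of the accession Landsberg erecta were wild type, ebs or shl-2, and all 3 genotypes were kept for 18 days on solid MS medium with 8 h of light and 16 h of dark per day, without other treatment. The ebs and shl-2 mutants are described as null for EBS and SHL, which encode chromatin-binding proteins with known roles in repressing flowering. The source label spells the second allele shl-2-2, while its title and genotype label spell it shl-2. Each genotype had 3 arrays, each hybridized with RNA of complete plants from a separate pool described as an independent biological sample.

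Plastid genes are transcribed by a bacterial-type RNA polymerase, whose core subunits are the plastid rpo genes and whose sigma factors come from the nucleus, and by a nuclear-encoded polymerase that serves mainly housekeeping genes such as the rpoB group and accD. Many plastid genes lie in clusters that are transcribed together and then cut into shorter RNAs. The labelling used here starts at poly(A), which plastid RNA carries mainly as a mark for decay, so the signal of a gene is that of the RNA that was primed. In whole seedlings, fewer cells rich in plastids, fewer genome copies per plastid and less RNA per copy cannot be told apart.

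The labels were checked first. SHL1 read 7.88, 8.02 and 7.88 in wild type and 7.46, 6.91 and 6.52 in shl-2 on the log2 scale of the deposited signals, and EBS was not analysed here. Of the markers listed for green tissue, 3 were named by a probe set (RCA, LHCB4.1 and PSAN), with mean log2 signals of 13.90 to 14.01 on all 9 arrays. RCA, the brightest of them, read 14.34 on every mutant array. Whether the amount of green tissue was equal was not tested. The root marker PYK10 had signals of 12.11 to 12.18 in wild type, 12.38 to 12.52 in ebs and 12.12 to 12.50 in shl-2, so that the ebs arrays lay wholly above wild type. Its log2 fold change was 0.29 in ebs (limma adjusted p = 0.176) and 0.21 in shl-2 (adjusted p = 0.314). The other root marker found, EXPA7, had log2 fold changes of 0.20 and 0.01, and no listed flower marker had a named probe set. Control probe sets for plant transcripts also differed between genotypes. The 5' probe set of GAPDH read 10.65 to 10.72 in wild type, 10.43 to 10.51 in ebs and 10.29 to 10.53 in shl-2. In the same order, the middle probe set of actin read 10.79 to 10.87, 10.72 to 10.73 and 10.65 to 10.75, below wild type on all mutant arrays. The 3' probe set of GAPDH had means of 11.32, 11.08 and 11.19, and the 25S rRNA probe set had means of 10.86, 10.71 and 10.68. The middle probe set of GAPDH differed less, with means of 11.80, 11.78 and 11.76. The log2 difference between the 3' and 5' probe sets of actin, a measure of RNA integrity, was 1.43 to 1.54 in wild type, 1.56 to 1.58 in ebs and 1.5 to 1.79 in shl-2. The same difference was 0.49 to 0.74, 0.53 to 0.67 and 0.71 to 0.80 for GAPDH, and 0.55 to 0.82, 0.54 to 0.73 and 0.72 to 0.76 for ubiquitin, so that wild type and ebs overlapped for both. The 25S rRNA probe set read lowest on shl-2 array 3, at 10.24 against 10.61 to 10.95 on the other 8 arrays. That array also had the lowest mean log2 signal over the plastid genes. The part of these differences in the plastid results was not tested.

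Plastid transcripts were among the brightest on the array. Their median log2 signal over the 9 arrays was 10.54, against 6.10 over all 22746 tested probe sets, and 63 of the 69 lay above that general median. The brightest was atpE, for the epsilon subunit of ATP synthase, at a mean log2 signal of 14.12, and it lay with 12 others in the top percentile of all probe sets, namely atpB, psaB, rbcL, clpP, rps4, petB, ndhI and 5 psb genes (psbC, psbE, psbF, psbM and psbZ). The 6 below the general median were ndhF, rpoB, petG, petD, rps14 and psaC. Probes bind with different strengths, so these signals do not rank the amounts of different RNAs. On all 6 mutant arrays atpE had the same value of 14.12.

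The median log2 fold change of the 69 genes was -0.13 in ebs and -0.12 in shl-2 against wild type, while over all probe sets the medians were -0.02 and -0.03. Negative values were found for 52 of the 69 genes in ebs (75.4%, against 55.8% of all probe sets) and for 54 in shl-2 (78.3%, against 57.4%). Array means over the 69 genes were 10.32, 10.42 and 10.18 on the wild type arrays, 10.21, 10.14 and 10.11 on those of ebs and 10.23, 10.19 and 10.01 on those of shl-2. The wild type range overlapped that of each mutant through wild type array 3. The wild type arrays serve both comparisons, so the similar shifts are not independent of each other. Single arrays changed the size of the shift: the shl-2 median was -0.07 without wild type array 2 and -0.08 without shl-2 array 3, and the number of negative values was then 48 and 46. Among the tested probe sets at or above the members' median level, the median log2 fold change was -0.02 in both mutants.

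**Figure D1:**
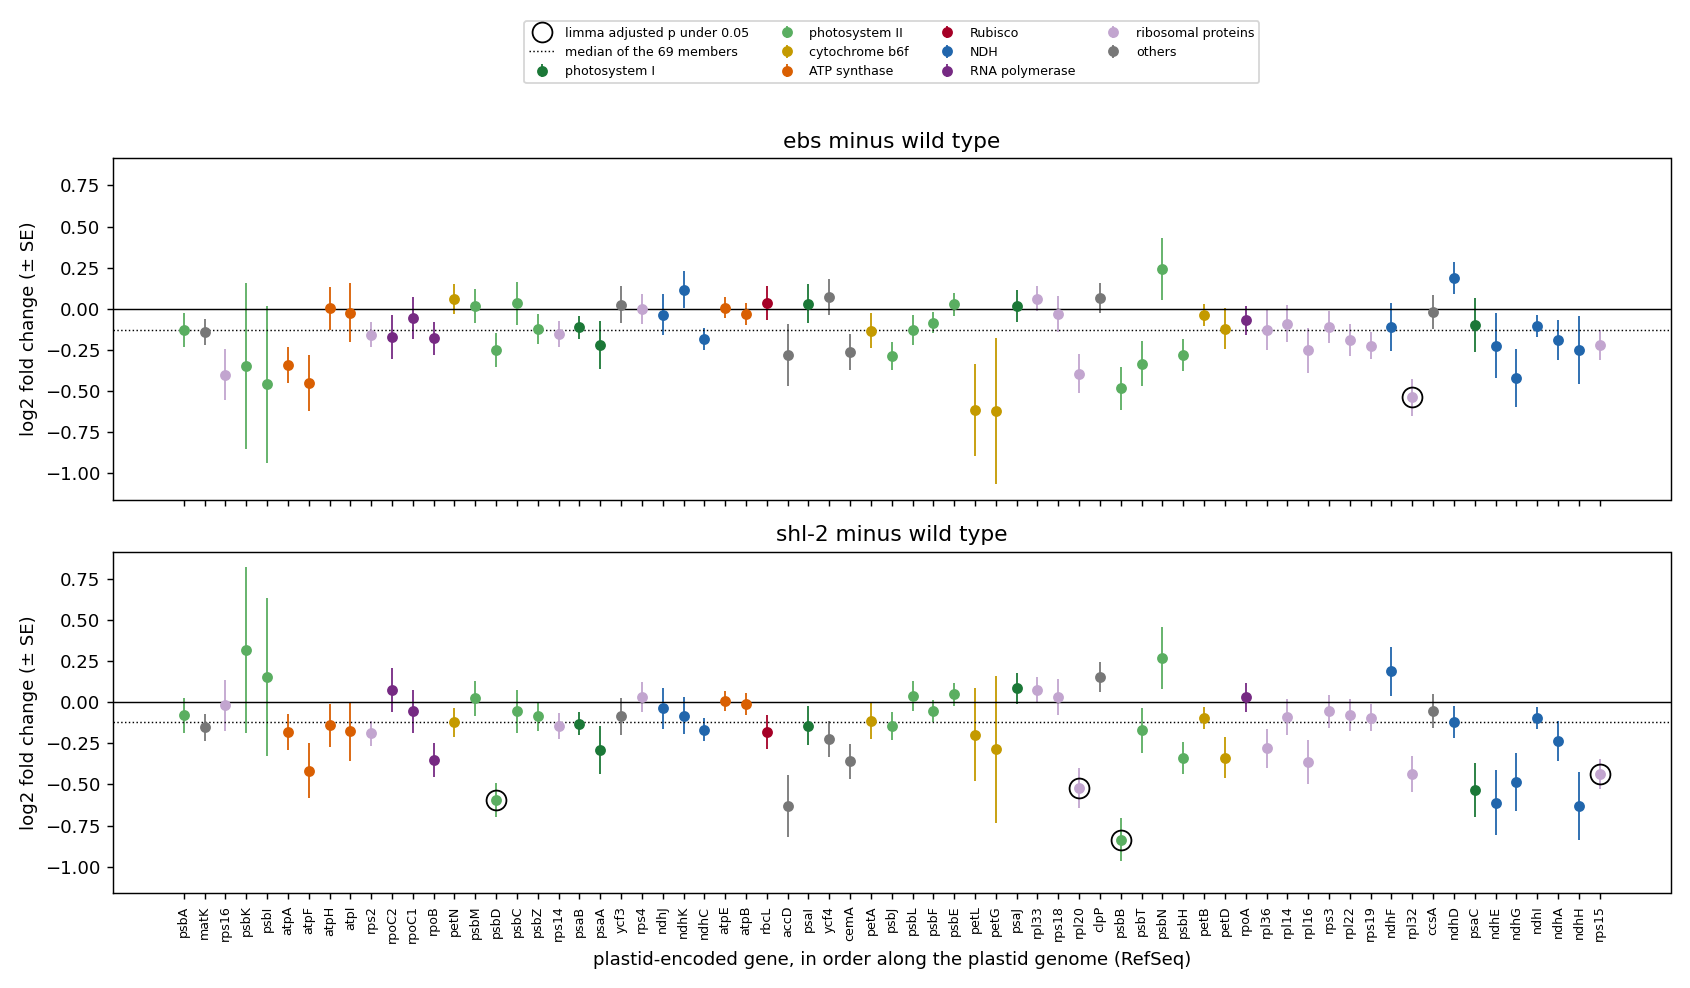
Log2 fold change with its standard error for each of the 69 plastid-encoded genes, placed in their order along the plastid genome and coloured by function, for ebs (top) and shl-2 (bottom) against wild type. Dotted lines mark the medians of -0.13 and -0.12, and circles mark the 1 gene in ebs and the 4 genes in shl-2 that passed limma's test.

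Few single genes passed the test. In ebs, rpl32 was called lower, which is 1.45% of the 69 genes against 1.47% of all probe sets called lower (limma, Benjamini-Hochberg adjusted p under 0.05 over 22746 probe sets; percent called in either direction 3.19). In shl-2, psbB, psbD, rpl20 and rps15 were called lower, which is 5.80% of the 69 against 2.99% of all probe sets called lower and 5.43% called in either direction. No plastid gene was called higher, against 1.72% of all probe sets in ebs and 2.44% in shl-2. The share called lower in ebs was thus that of the background, while the share called in either direction was 1.45% against 3.19%. The 4 calls in shl-2 were not tested against the background. At an unadjusted limma p under 0.05, 15 of the 69 genes were lower in ebs and 19 of the 69 in shl-2, with 0 higher in both. Over all probe sets the shares in either direction were 16.9% and 18.7%, and the lower ones were not counted apart. Arrays of mutant and wild type did not overlap, with the mutant lower, for 18 of the 69 genes in ebs (26.1%) and for 17 in shl-2 (24.6%), against 12.6% of all probe sets in each comparison. No plastid gene lay wholly above wild type in either mutant, against 7.34% of all probe sets in ebs and 7.94% in shl-2.

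Photosystem II splits water and passes electrons into the photosynthetic chain, and its core antenna protein CP47 is the product of psbB. The psbB signal was 10.05, 10.22 and 10.18 on the wild type arrays, 9.82, 9.68 and 9.50 on those of ebs and 9.61, 9.21 and 9.12 on those of shl-2. All 6 mutant arrays lay below the 3 wild type arrays, and shl-2 array 1 lay within the ebs range. In shl-2 the log2 fold change was -0.84 (SE 0.13, n = 3, limma adjusted p = 0.00537), or 56.0% of the wild type signal. In ebs it was -0.48 (SE 0.13, adjusted p = 0.0845), which passed only without shl-2 array 1 (adjusted p = 0.0395) among the fits that left out 1 array. The shl-2 call held whichever array was left out, with adjusted p from 0.00273 to 0.0308.

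The gene psbD encodes the reaction centre protein D2 of photosystem II. It read 10.21, 10.15 and 10.40 on the wild type arrays, 9.99, 10.03 and 9.99 on those of ebs and 9.73, 9.81 and 9.44 on those of shl-2. The 3 genotypes did not overlap, with wild type highest and shl-2 lowest. The log2 fold change was -0.59 in shl-2 (SE 0.11, limma adjusted p = 0.00947), or 66.3% of the wild type signal, and -0.25 in ebs (adjusted p = 0.259). The difference between shl-2 and ebs was -0.34 (adjusted p = 0.23). The call in shl-2 held in all 9 fits that left out 1 array, with adjusted p up to 0.0387.

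The neighbours of both genes did not pass. The psbB cluster, transcribed as one unit except for psbN on the opposite strand, also holds psbT and psbH for small photosystem II subunits and petB and petD for cytochrome b6 and subunit IV of the cytochrome b6f complex. In shl-2 the log2 fold changes along it were -0.84 for psbB, -0.17 for psbT, 0.27 for psbN, -0.34 for psbH, -0.10 for petB and -0.34 for petD, with adjusted p for the last 5 from 0.0827 for psbH to 0.573 for psbT. In ebs they were -0.48, -0.33, 0.24, -0.28, -0.04 and -0.12. The genes psbC, for the antenna protein CP43, and psbZ, a small subunit, follow psbD and share its transcripts. In shl-2 they had log2 fold changes of -0.06 (adjusted p = 0.87) and -0.09 (adjusted p = 0.675).

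No other photosystem II gene passed in either mutant. D1, the reaction centre protein with the fastest turnover, is encoded by psbA, which read 11.81, 11.83 and 11.58 on the wild type arrays, 11.69, 11.61 and 11.53 on those of ebs and 11.80, 11.71 and 11.47 on those of shl-2, so that all genotypes overlapped (log2 fold change -0.13 in ebs and -0.08 in shl-2, adjusted p = 0.593 and 0.756). Cytochrome b559, encoded by psbE and psbF, had log2 fold changes of 0.03 and -0.08 in ebs and of 0.05 and -0.05 in shl-2. For the small subunit genes psbJ, psbL and psbM the values were -0.29, -0.13 and 0.02 in ebs, while in shl-2 they were -0.14, 0.04 and 0.02. In total 11 of 15 psb genes were negative in ebs and 9 in shl-2.

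**Figure D2:**
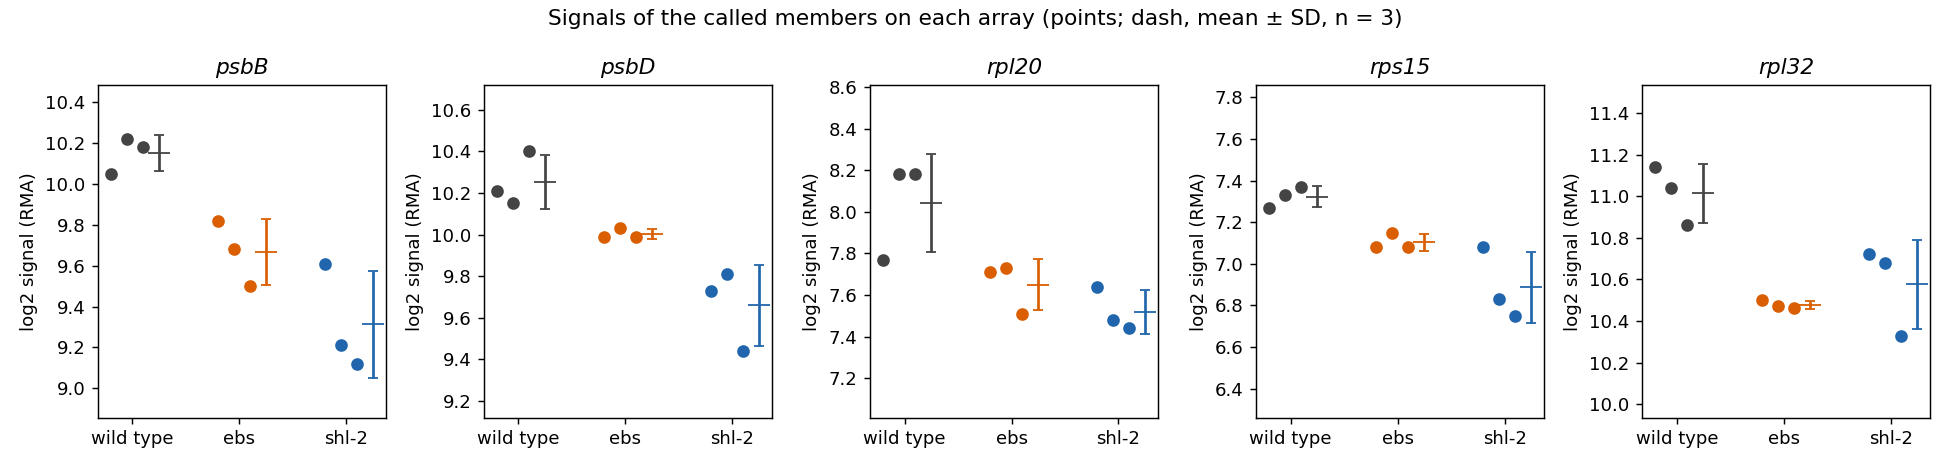
Log2 signals of psbB, psbD, rpl20, rps15 and rpl32 on each of the 9 arrays, with points for arrays and dashes with bars for mean ± SD (n = 3). All wild type points of psbB, psbD, rps15 and rpl32 lie above all mutant points, and for rpl20 the lowest wild type array at 7.77 lies close to the highest ebs array at 7.73.

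In photosystem I, which drives electrons on to ferredoxin, the reaction centre genes psaA and psaB had log2 fold changes of -0.22 and -0.11 in ebs and of -0.29 and -0.13 in shl-2, and neither passed (limma adjusted p from 0.336 to 0.507). The iron-sulfur subunit gene psaC read 6.16, 6.60 and 6.16 on the wild type arrays, 6.10, 6.38 and 6.15 on those of ebs and 5.83, 6.04 and 5.45 on those of shl-2. All shl-2 values lay below those of the other genotypes. The log2 fold change was -0.53 in shl-2 (SE 0.16, adjusted p = 0.102) and -0.10 in ebs, and the difference of -0.44 between the mutants had an adjusted p of 0.357. The small subunit genes psaI and psaJ had values of 0.03 and 0.02 in ebs and of -0.14 and 0.08 in shl-2.

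The NDH complex of the thylakoid carries electrons around photosystem I in cyclic flow, and 10 of its plastid genes were measured. None passed in either mutant (limma), with 2 of 10 at an unadjusted p under 0.05 in ebs and 4 in shl-2, against 16.9% and 18.7% of all probe sets. The median log2 fold change was -0.15 in ebs and -0.14 in shl-2, with 8 and 9 negative values. In shl-2 the lowest were ndhH at -0.63 (SE 0.21, adjusted p = 0.124), ndhE at -0.61 (SE 0.20, adjusted p = 0.119) and ndhG at -0.49 (SE 0.18, adjusted p = 0.167). The ndhH signal was 7.50, 7.31 and 7.06 on the wild type arrays, 7.18, 7.05 and 6.89 on those of ebs and 6.99, 6.87 and 6.12 on those of shl-2. The shl-2 arrays lay below wild type but overlapped ebs, and shl-2 array 3 stood lowest for both ndhH and ndhE (6.09, against 6.90 and 6.84 on the other shl-2 arrays). The brighter members of the complex had smaller values, with ndhI at -0.10, ndhJ at -0.04, ndhC at -0.17 and ndhA at -0.24 in shl-2. The genes ndhK and ndhD were at 0.12 and 0.19 in ebs and at -0.08 and -0.12 in shl-2. The dimmest plastid gene, ndhF, was the only ndh gene with a positive value in shl-2, at 0.19 (adjusted p = 0.564).

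Several of these genes stand side by side. The run from rps15 through ndhH, ndhA, ndhI, ndhG, ndhE and psaC to ndhD holds 8 neighbouring genes, and all 8 had negative values in shl-2, with a median log2 fold change of -0.46, against -0.21 in ebs with 7 negative. The run was picked after its values had been seen, so this is a description. Within it the change was uneven, from -0.63 for ndhH to -0.10 for ndhI next but one. Mean signals over the run were 8.87, 8.91 and 8.73 on the wild type arrays, 8.71, 8.73 and 8.58 on those of ebs and 8.54, 8.55 and 8.24 on those of shl-2, with shl-2 below all other arrays. Across all neighbouring pairs of measured genes (n = 68 pairs from the same arrays), log2 fold changes of neighbours had r = 0.06 in ebs and 0.01 in shl-2 against wild type, and r = 0.54 between shl-2 and ebs. The neighbours psbK and psbI had the highest values between shl-2 and ebs (0.66 and 0.61), and the neighbours petL and petG had 0.42 and 0.33. These genes spread widely among arrays of the same genotype, as given below, and r was not computed without them.

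Calls fell on 3 ribosomal protein genes. Of the 15 genes in this group, 1 was called lower in ebs (6.67%, against 1.47% of all probe sets). In shl-2 the number was 2 (13.3%, against 2.99%). Each call ended in several of the fits that left out 1 array, and these shares were not tested against the background. In the small subunit, rps15 read 7.27, 7.33 and 7.37 on the wild type arrays, 7.08, 7.15 and 7.08 on those of ebs and 7.08, 6.83 and 6.75 on those of shl-2. Every mutant array lay below wild type, and 1 shl-2 array equalled the lowest ebs value. The log2 fold change was -0.44 in shl-2 (SE 0.09, limma adjusted p = 0.0205) and -0.22 in ebs (adjusted p = 0.248). The call ended without wild type array 2 or 3 or shl-2 array 2 or 3 (highest adjusted p = 0.0735) and when only shl-2 and wild type were fitted (adjusted p = 0.06).

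In the large subunit, rpl20 read 7.77, 8.18 and 8.18 on the wild type arrays, 7.71, 7.73 and 7.51 on those of ebs and 7.64, 7.48 and 7.44 on those of shl-2. The mutant arrays lay below wild type, with wild type array 1 close to them. The log2 fold change was -0.52 in shl-2 (SE 0.12, limma adjusted p = 0.0348) and -0.39 in ebs (adjusted p = 0.121). The shl-2 call ended without wild type array 2 or 3, ebs array 1 or any shl-2 array (highest adjusted p = 0.127) and with only these genotypes fitted (adjusted p = 0.0716), while without wild type array 1 the gene passed in ebs as well (adjusted p = 0.0262). Its neighbours rpl33 and rps18 had log2 fold changes of 0.08 and 0.03 in shl-2.

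The third, rpl32, read 11.14, 11.04 and 10.86 on the wild type arrays, 10.50, 10.47 and 10.46 on those of ebs and 10.72, 10.68 and 10.33 on those of shl-2. All mutant arrays were lower than wild type, and the ebs arrays lay close together. In ebs the log2 fold change was -0.54 (SE 0.11, limma adjusted p = 0.0334), or 68.9% of the wild type signal, and in shl-2 it was -0.44 (adjusted p = 0.0527). The ebs call ended without wild type array 1 or 2 or any ebs array (highest adjusted p = 0.12), and in shl-2 the gene passed under several other settings, with adjusted p from 0.0236 with the replicate block to 0.0439 after repeated quantile normalization.

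Of the 15 ribosomal protein genes, 13 had negative values in ebs and 12 in shl-2, with median log2 fold changes of -0.16 and -0.09. The mutant arrays lay wholly below wild type for 9 of 15 in ebs (60.0%) and 5 in shl-2 (33.3%), against 12.6% of all probe sets in each comparison. The cluster of rpl16, rpl22 and rps19 had values of -0.25, -0.19 and -0.22 in ebs and of -0.36, -0.08 and -0.09 in shl-2. The values of rps2, rps14 and rpl36 were -0.16, -0.15 and -0.13 in ebs, while in shl-2 they were -0.19, -0.14 and -0.28. Without shl-2 array 1, rpl36 passed in shl-2 (log2 fold change -0.42, limma adjusted p = 0.0472). The intron-bearing rps16 was at -0.40 in ebs and -0.02 in shl-2 (SE 0.16, adjusted p = 0.411 for the difference). At 0.00 and 0.03, rps4 was flat, and rpl14 and rps3 lay between -0.11 and -0.06 in both mutants.

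The core subunit genes of the bacterial-type polymerase did not pass with all 9 arrays fitted. The beta subunit gene rpoB read 5.42, 5.51 and 5.37 on the wild type arrays, 5.18, 5.29 and 5.29 on those of ebs and 5.29, 5.08 and 4.88 on those of shl-2, below wild type on all mutant arrays. Its log2 fold change was -0.35 in shl-2 (SE 0.10, limma adjusted p = 0.0853) and -0.18 in ebs. Without shl-2 array 1, rpoB passed in shl-2 (log2 fold change -0.45, adjusted p = 0.032). The rest of its transcription unit, rpoC1 and rpoC2, had values of -0.06 and 0.08 in shl-2 and of -0.06 and -0.17 in ebs, and rpoA, the alpha subunit gene, had 0.03 and -0.07. The splicing factor gene matK was at -0.15 in shl-2 and -0.14 in ebs. It did not pass either.

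**Figure D3:**
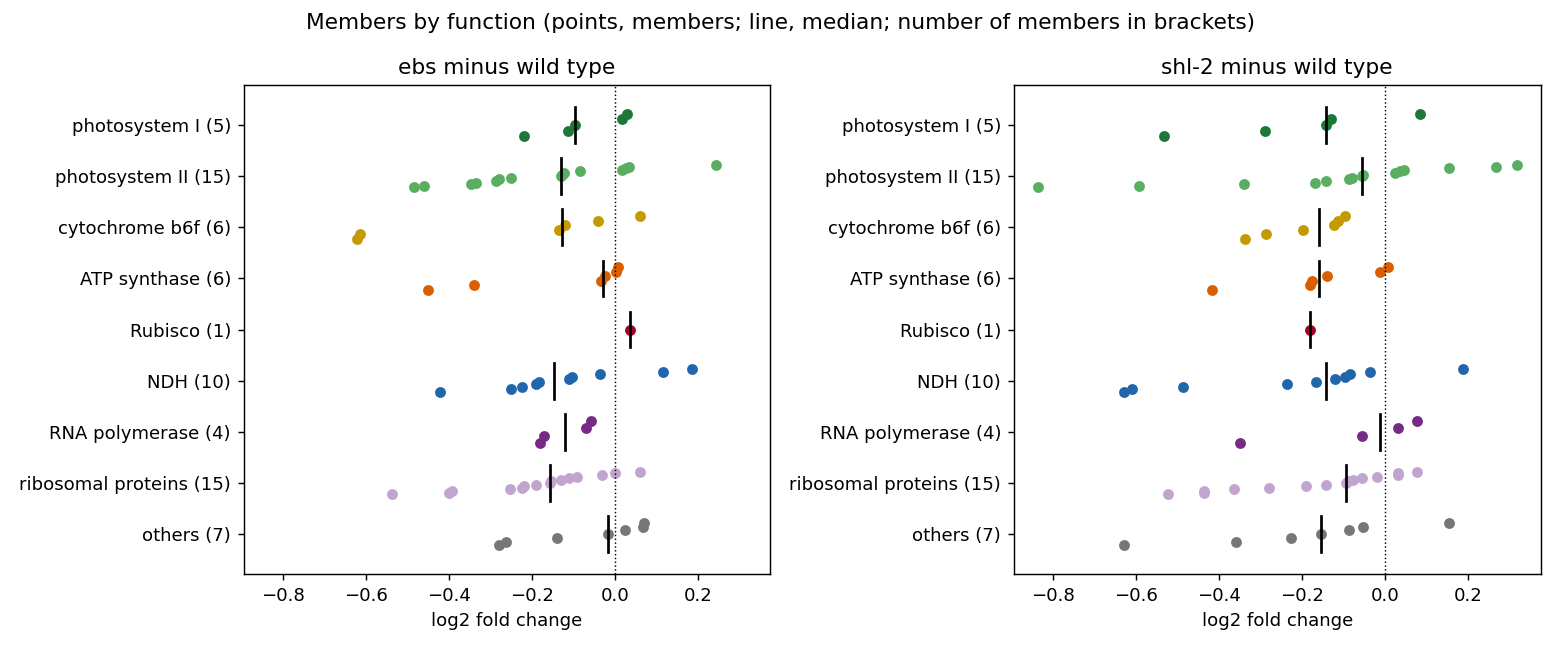
Log2 fold changes of the 69 plastid-encoded genes grouped by function, for ebs (left) and shl-2 (right) against wild type, with a line at the median of each group. In ebs the medians run from -0.16 for ribosomal proteins to 0.04 for rbcL alone, and in shl-2 from -0.18 for rbcL to -0.01 for RNA polymerase.

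Side by side, the photosystem, ndh and gene-expression genes had median log2 fold changes of -0.13, -0.15 and -0.16 in ebs, and of -0.08, -0.14 and -0.09 in shl-2. Negative values numbered 14 of 20, 8 of 10 and 18 of 20 in ebs, and 13 of 20, 9 of 10 and 15 of 20 in shl-2. Genes whose arrays lay wholly below wild type numbered 5, 2 and 10 in ebs, or 25%, 20% and 50%, while in shl-2 they numbered 4, 4 and 6, or 20%, 40% and 30%. Over all probe sets the share was 12.6% in each comparison. The 3 groups were not tested against each other. Their medians in shl-2 moved by as much as they differ when 1 array was left out: without shl-2 array 3 they were -0.03, -0.12 and -0.04, and without wild type array 3 they were -0.18, -0.15 and -0.13. Leaving out wild type array 2 gave -0.05, -0.16 and -0.07, leaving out shl-2 array 2 gave -0.14, -0.20 and -0.12, and leaving out shl-2 array 1 gave -0.10, -0.11 and -0.16.

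The remaining genes of the electron transport chain and carbon fixation did not pass in either mutant. The large subunit of Rubisco, the enzyme that fixes carbon dioxide, is encoded by rbcL, which read 12.14, 12.41 and 12.48 on the wild type arrays, 12.34, 12.49 and 12.31 on those of ebs and 12.22, 12.22 and 12.05 on those of shl-2. The shl-2 arrays overlapped wild type but lay below ebs (log2 fold change between the mutants -0.22, SE 0.10, limma adjusted p = 0.5). Of the ATP synthase genes, atpF for a stator subunit was lowest, at -0.45 in ebs (SE 0.17, adjusted p = 0.206) and -0.42 in shl-2 (adjusted p = 0.215), and atpA for the alpha subunit was at -0.34 and -0.18. The values of atpB, atpE, atpH and atpI lay between -0.03 and 0.01 in ebs and between -0.18 and 0.01 in shl-2. In the cytochrome b6f complex, petA for cytochrome f was at -0.13 in ebs and -0.11 in shl-2, and petN at 0.06 and -0.12.

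Among the genes outside these complexes, accD, which encodes a subunit of the acetyl-CoA carboxylase of fatty acid synthesis, read 9.89, 9.99 and 9.52 on the wild type arrays, 9.66, 9.28 and 9.62 on those of ebs and 9.46, 9.30 and 8.75 on those of shl-2. The shl-2 arrays lay below wild type, with the highest of them close to wild type array 3. Its log2 fold change in shl-2 was -0.63 (SE 0.19, limma adjusted p = 0.0938). The envelope protein gene cemA, further along the same cluster, was at -0.36 (adjusted p = 0.0903), and ycf4, for a photosystem I assembly factor, was at -0.23. Without wild type array 3, cemA passed in shl-2 (log2 fold change -0.47, adjusted p = 0.0332). The protease gene clpP had the highest value of this group in shl-2, 0.15 (adjusted p = 0.416). Both ycf3, for another assembly factor of photosystem I, and ccsA, for a factor of cytochrome c maturation, lay between -0.09 and 0.02 in the 2 comparisons.

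A pair of neighbouring gene couples stood out for their spread among arrays of the same genotype. The small photosystem II subunit genes psbK and psbI are adjacent and transcribed together. The psbK signal was 10.78, 10.76 and 9.04 on the wild type arrays, 10.85, 9.03 and 9.66 on those of ebs and 10.63, 10.45 and 10.45 on those of shl-2. The psbI signal was 10.80, 11 and 9.33 on the wild type arrays, 10.96, 9.24 and 9.55 on those of ebs and 10.44, 10.59 and 10.56 on those of shl-2. Both genes were thus low on wild type array 3 and ebs arrays 2 and 3, and close together in shl-2.

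The same arrays were low for petL and petG, adjacent genes for small subunits of cytochrome b6f. The petL signal was 7.22, 7.68 and 6.51 on the wild type arrays, 7.02, 6.35 and 6.20 on those of ebs and 7.03, 7.02 and 6.77 on those of shl-2. The petG signal was 5.40, 6.48 and 4.83 on the wild type arrays, 5.80, 4.19 and 4.86 on those of ebs and 5.64, 5.12 and 5.09 on those of shl-2. The within-genotype SDs of the 4 genes were 0.79, 0.75, 0.43 and 0.70, at percentiles of 98.3 or higher among all tested probe sets, while the median SD was 0.14 over the 69 genes and 0.12 over all probe sets. Their differences between genotypes, from -0.62 for petG in ebs against wild type to 0.66 for psbK in shl-2 against ebs, did not pass (limma adjusted p from 0.305 to 0.91 against wild type, and 0.711 for psbK between the mutants).

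**Figure D4:**
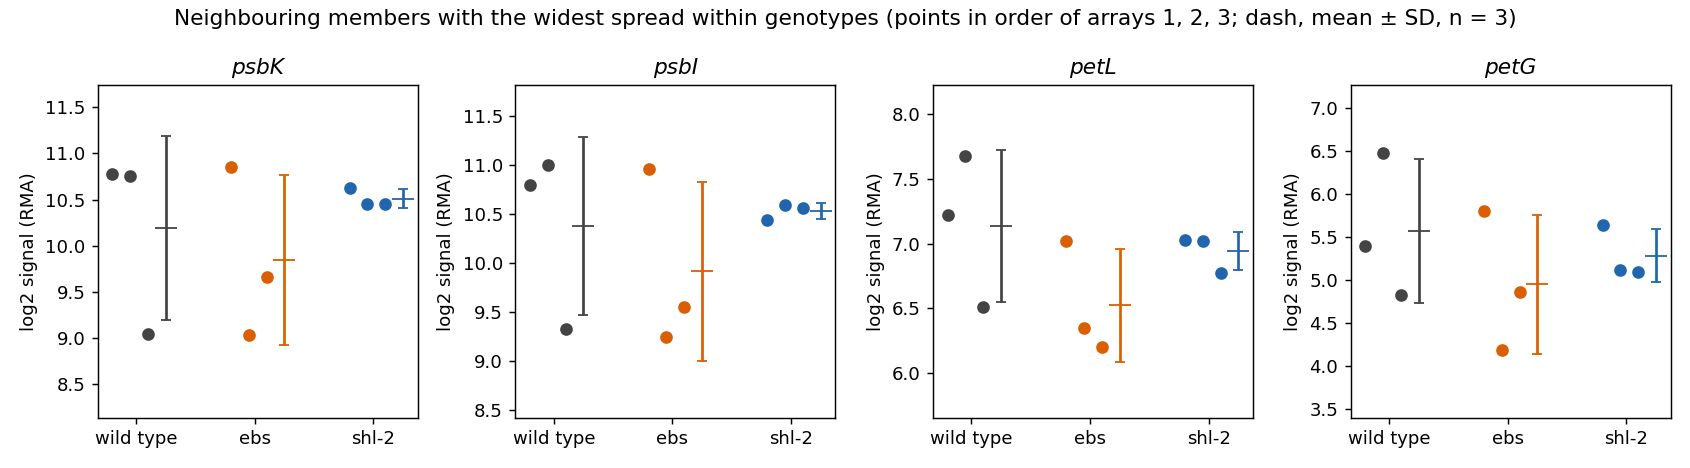
Log2 signals of the neighbouring genes psbK and psbI and of petL and petG on the 9 arrays, with points in the order of arrays 1, 2 and 3 within each genotype and dashes with bars for mean ± SD (n = 3). Wild type array 3 and ebs arrays 2 and 3 are low for all 4 genes, while the 3 shl-2 arrays lie closer together for each gene.

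Log2 fold changes were nearer to 0 among the brighter genes. Of the 34 genes below the members' median level, 29 were negative in ebs and 27 in shl-2, with median log2 fold changes of -0.22 and -0.21. Of the 35 brighter genes, 23 and 27 were negative, with medians of -0.08 and -0.09. Across the 69 genes, which share arrays and are not independent, log2 fold change and mean level had r = 0.39 in ebs and 0.39 in shl-2. Among all tested probe sets the signed medians hardly depended on level. They were -0.04 in ebs and -0.03 in shl-2 for the 14492 probe sets from the dimmest plastid gene up to the members' median level. At or above that level they were -0.02 in both. Signed medians do not show how wide the changes are at a level, so the part of signal level in the difference among plastid genes was not tested.

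**Figure D5:**
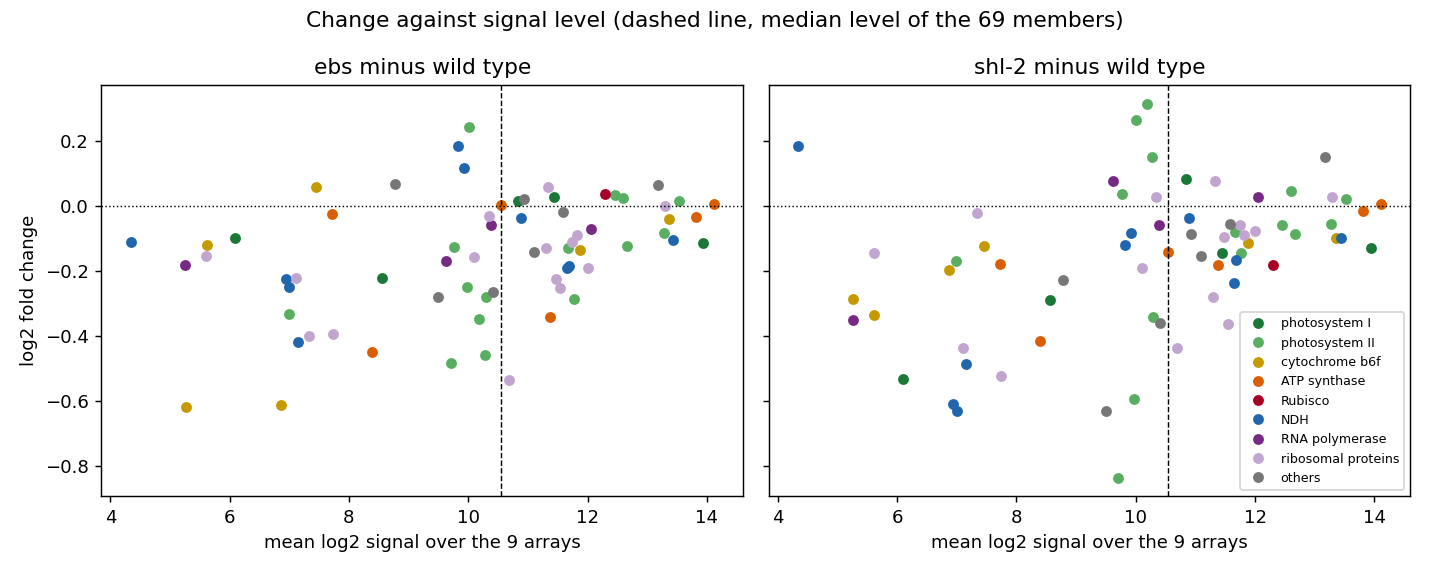
Log2 fold change against mean log2 signal over the 9 arrays for the 69 plastid-encoded genes in ebs (left) and shl-2 (right). Genes brighter than about the dashed median level of 10.54 lie closer to 0, with medians of -0.08 and -0.09, than dimmer genes, with medians of -0.22 and -0.21.

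Set relative to the other plastid genes, by centring each array on the mean of the 69, psbB alone was still called in shl-2 (log2 fold change -0.67, limma adjusted p = 0.00598). The values of psbD, rpl20 and rps15 were then -0.43, -0.36 and -0.27 in shl-2 (adjusted p = 0.0798, 0.163 and 0.231), and rpl32 in ebs was at -0.39 (adjusted p = 0.0848). Centring on the median of the 69 gave psbB a log2 fold change of -0.66 in shl-2.

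Between the mutants, the plastid genes had a median log2 fold change of 0.00, and 32 of 69 had the lower mean in shl-2 (46.4%, against 50.8% of all probe sets). None passed limma's test, against 0.769% of all probe sets called in either direction, 0.501% lower and 0.268% higher, and 7 had an unadjusted p under 0.05 (10.1%, against 10.7% of all probe sets). The shl-2 arrays lay wholly below ebs for 7 genes (10.1%, against 7.13% of all probe sets): psbD, psaC, rbcL, petB, petN, ndhD and ycf4. They lay wholly above ebs for 0 genes, against 6.85% of all probe sets. Of these, ndhD, whose product is a core subunit of NDH, read 9.90, 10.06 and 10.00 on the ebs arrays and 9.61, 9.82 and 9.61 on the shl-2 arrays, a difference of -0.31 (adjusted p = 0.243).

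Few nuclear genes that serve the same complexes were found by name. Of the 22746 tested probe sets, 8730 were left without a gene name here, so a listed gene may be on the array without being found. None of the 30 names listed for plastid transcription (sigma factors, phage-type polymerases and polymerase-associated proteins) and none of the 12 for plastid signalling had a named probe set. For plastid RNA processing 5 genes were measured, and 0 passed in either mutant (limma): the RNA editing factors CRR21, CRR22, CRR28 and LPA66 and the intron splicing factor CAF1. The lowest were CRR28, at -0.33 in ebs (adjusted p = 0.172) and -0.24 in shl-2, and CRR21, at -0.28 (adjusted p = 0.234) and -0.21. The 3 measured nuclear NDH subunit genes did not pass, with values from -0.11 to 0.10 in ebs and from -0.21 to 0.04 in shl-2. The 7 nuclear genes for photosystem and light-harvesting subunits had median log2 fold changes of 0.02 in ebs and 0.01 in shl-2, from -0.06 to 0.18, and 0 were called.

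The other organelle with a genome was measured through 16 probe sets with symbols of mitochondrial genes, whose identifiers were not found in the RefSeq table. Their signals were lower, with array means of 5.40 to 5.65. The median log2 fold change was -0.02 in ebs, with 11 of 16 negative (against 55.8% of all probe sets) and 0 called (against 3.19%). In shl-2 it was -0.10, with 12 of 16 negative (against 57.4%) and 2 of 16 called lower (against 2.99%). The genes called were cox1 for a cytochrome oxidase subunit (-0.59, limma adjusted p = 0.0218) and orfX, listed in RefSeq as a synonym of mttB (-0.48, adjusted p = 0.0255). Some of the 16 probe sets, that of orfX among them, are of a type that several transcripts may share, unlike those of the plastid genes. Lower values in shl-2 were thus also found among these 16, which were not tested as a set.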

How the data were processed

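The authors deposited a log2 signal for each probe set. The submitters' processing notes name RMA and the affy package, whose versions were not given in the sources used here. Scanner files were not used, so background correction was not varied. Of 22810 probe sets, 64 AFFX controls were set aside and 22746 tested without a filter. Gene names came from the platform annotation, updated through Entrez identifiers to RefSeq (TAIR10.1), whose coordinates were used only for gene order.

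With limma 3.58.1 in R 4.3.3, genotype means were fitted to all 9 arrays and tested two-sided with eBayes at default settings, with Benjamini-Hochberg adjustment across the 22746, and called at an adjusted p under 0.05. The fit was tested on simulated data. Errors are SDs between arrays of the same genotype and limma's SEs. With 3 arrays per genotype, the number of arrays limits the precision.

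The choice of the plastid genome as a set, and the lists, were made with earlier results of these data known; within the set, annotation decided. The rule for named genes took called genes, the extremes of each functional group and a fixed set; others were added to account for all 69. Alternatives were a replicate block, median centring, repeated quantile normalization, removal of the dimmest 30%, other variance and weight settings, fits of 2 groups, an adjusted p under 0.01, centring on the plastid median, centring on the plastid mean (added after the data were seen) and leaving out each array.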

Additional observations from a re-analysis of the deposited data

How the results depend on the processing

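The plastid genes called in shl-2 numbered 4. They numbered 5 with median centring, repeated quantile normalization, the dimmest 30% left out, or trended and robust variances, each of which added rpl32, 6 with array weights, which added rpl32 and cemA, 7 with the replicate block, 2 when only the compared groups were fitted, 1 when arrays were centred on the plastid median or, chosen after seeing the data, on the plastid mean, and 2 at an adjusted p under 0.01, and 2 to 5 without single arrays. The 1 call in ebs became 0 with either plastid centring and at an adjusted p under 0.01, and 0 to 2 without single arrays, and the 0 calls between the mutants became 1 (psbK) when centred on the plastid median and stayed 0 without any single array. The fit centred on the plastid median gave the plastid genes called in any setting the same SE of 0.19, which ignores the spread of each gene, so its calls say nothing of psbK, at an adjusted p of 0.935 when centred on the plastid mean. With the block, psaC (adjusted p = 0.0165), ndhH (0.0184) and rpl32 (0.0236) were called in shl-2 beside the 4. Calls in shl-2 over all probe sets also moved, from 1235 to 1402 with the block and to 1330 with array weights. They were 1239 to 1359 in the settings that added rpl32 alone, and 837 when only the compared groups were fitted. The fit without the dimmest 30% tested 15923 probe sets. Whether replicate numbers pair the arrays is not given in the labels. Deviations of same-numbered arrays correlated above 0.1 in 7 of 9 pairs but not in all (-0.29 to 0.46), and 3 of 9 arrays correlated best with their own number in both other genotypes, so the fit without the block was kept.

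Calls over all probe sets were 726, 1235 and 175 in ebs, shl-2 and between the mutants. They were 1129 in ebs and 364 between the mutants with array weights, 112 between the mutants when only these were fitted, and 212, 530 and 51 at an adjusted p under 0.01. Without single arrays they ranged from 264 to 838, 677 to 1229 and 64 to 190. Centring on the plastid mean, which moved the median of all probe sets to 0.13 in ebs and 0.14 in shl-2, turned the split of lower and higher calls from 335 and 391 to 118 and 696 in ebs, and from 680 and 555 to 234 and 990 in shl-2. Centring on the plastid median, with its shared SE, gave 101 and 738, and 184 and 796.

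Without single arrays, median log2 fold changes of the 69 genes ranged from -0.17 to -0.09 in ebs, from -0.17 to -0.07 in shl-2 and from -0.04 to 0.02 between the mutants. Photosystem medians ranged from -0.17 to -0.09, from -0.18 to -0.03 and from -0.02 to 0.05, ndh medians from -0.17 to -0.12, from -0.20 to -0.11 and from -0.16 to 0.00, and gene-expression medians from -0.19 to -0.13, from -0.16 to -0.04 and from -0.01 to 0.07. Under the other settings run for them, these medians moved by less than the SD between arrays. That yardstick is wide: array medians over the 69 genes had SDs of 0.12, 0.22 and 0.10 in wild type, ebs and shl-2, about the size of the shifts. The values themselves changed little, with medians of the 69 genes in ebs of -0.12 after median centring and -0.13 after repeated quantile normalization. In shl-2 both settings gave -0.12. No called gene reversed its direction in any setting. The dimmest gene, ndhF, limits what can be seen, since its mean log2 signal of 4.34 lies near the lower quartile of 3.85 over all probe sets. The next dimmest, rpoB and petG, were at 5.26 and 5.27, and 0 of the 69 genes lay below that quartile.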
